A study of Mus musculus with 4 samples.

Results

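Proliferating spots of hyperuricemic mouse kidney were 261 of 5240 spots of the Uox_KO sections, out of 11130 spots in all 4 sections. They were chosen by a rule on 5 mRNAs of dividing cells: Mki67, Top2a, Cdk1, Ccnb2 and Birc5. For each spot the unique molecular identifiers (UMIs) of each gene were divided by the non-mitochondrial UMIs of the spot, multiplied by 10000 and log-transformed (natural log of the value plus 1). The 5 values were summed to a score, and the top 5% of spots of each section were taken, which gave 132 of 2650 spots in Uox_KO section 1 and 129 of 2590 in Uox_KO section 2. On a Visium slide the mRNA under each spot comes from a handful of neighbouring cells, so a proliferating spot is one that held RNA of dividing cells beside RNA of its other cells.

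The study compared kidney of Uox_KO mice, a model of raised uric acid, with kidney of Control mice. Uox codes for urate oxidase, the enzyme that breaks down uric acid in rodents, and the deleted part spans exons 2 to 4. All 4 mice were male, on the C57BL/6J background, with no treatment named, and 1 fresh frozen section of 10 µm was taken per mouse (n = 2 Uox_KO, n = 2 Control). The section was the replicate of every test. With so few sections, edgeR estimated the spread of a gene with help from the spread of all genes. A small edgeR p-value therefore does not rest on that gene's own spread between sections alone. The age of the mice and whether they were litter mates are not in the labels.

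In a healthy adult kidney few cells divide. After injury, surviving tubule cells can lose their mature transport program, re-enter the cell cycle and replace lost neighbours, and macrophages, lymphocytes and fibroblasts in the tissue can divide as well. The S phase genes copy DNA, and the G2 and M phase genes, to which all 5 chosen markers belong or lead, build the spindle, separate the chromosomes and divide the cell. Many G2 and M phase promoters carry a short element called CHR (TTTGAA) together with CCAAT boxes, which are read by the DREAM, MYB-MuvB and NF-Y factors.

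The promoters of the 5 markers are shown because the genes rise and fall together over the cell cycle. Each line below gives the 150 bases that lie before the transcription start in RefSeq's GRCm38.p6 annotation, 5′ to 3′ on the strand of the gene, with TTTGAA and CCAAT on either strand in capitals.
Mki67, chr7:135716380-135716529, minus strand: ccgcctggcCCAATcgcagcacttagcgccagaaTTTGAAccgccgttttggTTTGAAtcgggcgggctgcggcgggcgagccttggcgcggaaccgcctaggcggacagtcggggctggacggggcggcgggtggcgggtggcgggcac
Top2a, chr11:99024190-99024339, minus strand: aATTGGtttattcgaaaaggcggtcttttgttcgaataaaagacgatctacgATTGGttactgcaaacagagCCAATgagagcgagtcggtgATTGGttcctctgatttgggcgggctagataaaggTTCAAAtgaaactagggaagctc
Cdk1, chr10:69352913-69353062, minus strand: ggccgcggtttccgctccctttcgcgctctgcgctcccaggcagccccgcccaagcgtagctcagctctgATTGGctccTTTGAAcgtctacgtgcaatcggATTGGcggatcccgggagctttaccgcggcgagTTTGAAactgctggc
Ccnb2, chr9:70421555-70421704, minus strand: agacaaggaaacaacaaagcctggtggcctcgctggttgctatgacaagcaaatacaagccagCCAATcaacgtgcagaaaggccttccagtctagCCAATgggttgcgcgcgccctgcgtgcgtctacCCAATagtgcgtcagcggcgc
Birc5, chr11:117849087-117849236, plus strand: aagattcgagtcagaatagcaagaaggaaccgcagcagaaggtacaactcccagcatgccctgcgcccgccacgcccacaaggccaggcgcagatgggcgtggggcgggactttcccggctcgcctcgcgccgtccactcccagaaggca
Over the 300 bases from 250 before to 50 after the start, TTTGAA was found 2 times in each of Mki67, Top2a, Cdk1 and Ccnb2, and neither motif was found in Birc5. Promoters were matched by symbol for 47 of the 59 listed G2 and M phase genes, markers included. TTTGAA was present in 70.2% of these genes and CCAAT in 72.3%, with both in 59.6%. Among the 27025 genes with a promoter the shares were 20.2% and 41.1%, with both in 7.97%. Of the 36 S phase genes 29 were matched, and they held TTTGAA in 13.8% and CCAAT in 65.5%. The E2F letters TTTCCCGC, searched on both strands, were in 13.8% of the S phase genes and 1.24% of all. A match here is a run of letters and not a measured binding site.

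The sections held 53897511 and 57230517 UMIs in Uox_KO and 93524222 and 107962997 in Control, and the median spot held 16674 and 19599.5 UMIs in Uox_KO against 37386 and 32038.5 in Control. Uox itself had 0 UMIs in all 4 sections, Control included, which allows up to 0.0278 to 0.0557 CPM (UMIs of a gene scaled to a common total; 3 counts of the total, counting error only), so it checks no label here. Spot barcodes name positions on the capture slide. Of them, 1925 were used in both Uox_KO sections, and 5 were chosen in both.

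The score chose the spots, so the marker values are a description. The chosen spots held 869 of the 2340 marker UMIs of section 1 (37.1%) and 997 of the 2713 of section 2 (36.7%). The median chosen spot had 5 marker UMIs in section 1 and 7 in section 2, and the highest had 27 and 58. Mki67, which coats mitotic chromosomes, had at least 1 UMI in 83.3% and 87.6% of the chosen spots and in 17.0% and 18.9% of the remaining spots. Birc5 (survivin), a part of the complex that corrects chromosome attachment, had one in 76.5% and 85.3% of the chosen spots. Cdk1, the kinase that starts mitosis, was found in 60.6% and 65.9% of them, Top2a, which untangles DNA, in 52.3% and 58.1%, and Ccnb2, a cyclin partner of Cdk1, in 43.2% and 43.4%. All 5 genes were present together in 21 of 132 and 27 of 129 chosen spots. The lowest chosen score was 1.62 in section 1 and 1.80 in section 2, and the highest score left out was 1.61 and 1.79, so the cut fell in a continuous range. Which spot was chosen rested on few molecules: a score of 5 other cell cycle genes (Tpx2, Nusap1, Cenpf, Ube2c, Prc1) chose 103 of the same 261 spots, and a score on spots thinned to 5000 UMIs shared 129 of its 238 spots with the main choice.

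The chosen spots were close in depth to the others. Their median was 16481.5 UMIs against 16687 in section 1 and 19205 against 19606 in section 2. They differed in mitochondrially encoded RNA, whose median share was 9.72% against 13.7% and 9.81% against 17.4%.

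Marker RNA was far rarer in the Control kidneys. Spots were thinned to 5000 UMIs, since shares of spots with a UMI depend on depth, and 293, 152, 6 and 4 spots below that depth were left out. At least 2 marker UMIs were then found in 98 of 2357 spots (4.16%, exact 95% interval 3.39 to 5.04%) and 114 of 2438 spots (4.68%, 3.87 to 5.59%) of the Uox_KO sections. The Control sections had 2 of 2522 spots (0.0793%, 0.00961 to 0.286%) and 4 of 3358 (0.119%, 0.0325 to 0.305%). The mean was 4.42% ± 0.366 (SD, n = 2) against 0.0992% ± 0.0282 (SD, n = 2), and the groups did not overlap. The exact two-sided permutation test gave p = 0.333, the smallest that 2 against 2 sections allow. Intervals cover counting error only. Without thinning the shares were 16.5% and 20.3% against 1.78% and 1.58%.

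**Figure D1:**
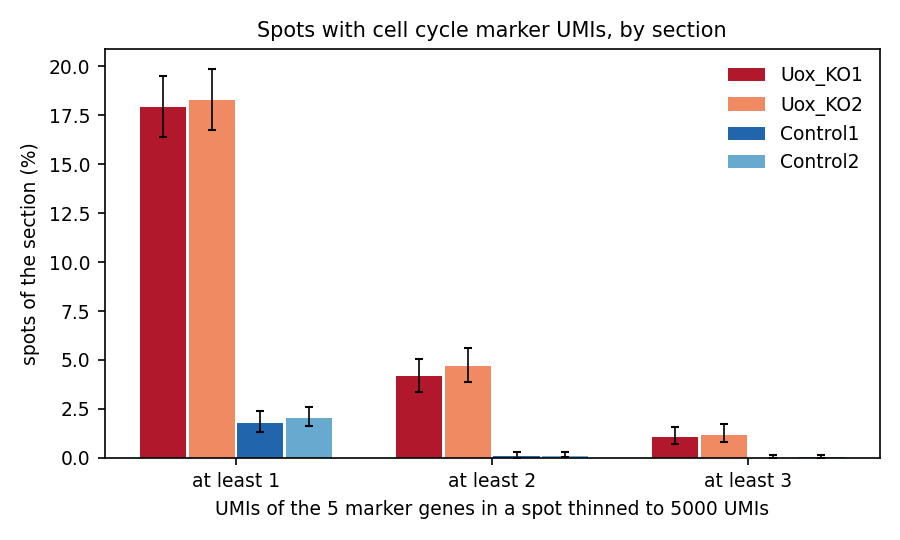
Share of spots (y axis, percent of the section's spots with at least 5000 UMIs) with at least 1, 2 or 3 UMIs of the 5 markers after thinning, one bar per section with its exact 95% interval. Both Uox_KO sections lie above both Control sections at each cut, with 17.9% and 18.3% against 1.78% and 2.05% at 1 UMI.

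Over whole sections all 5 markers rose in Uox_KO in the edgeR fit, and so did 85 of the 95 S phase, G2 and M phase and marker genes. Among all genes 34.6% rose (5665 of 16369) and 32.5% fell. The cell cycle rise was not limited to the chosen spots: with them left out of the Uox_KO sums, 83 of 95 still rose. Mki67, for example, was at 15.7 and 15.3 CPM (of the whole section) in the Uox_KO sections and at 0.962 and 0.982 in Control.

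The label was checked with cell cycle genes that the rule did not use, on the TMM-scaled CPM described below. Such genes are switched on together with the markers, so they are described without a test. Of 54 other G2 and M phase genes, 53 were higher in the chosen than in the remaining spots of both sections, with a median log2 difference of 2.40. Of 36 S phase genes, 35 were higher in both sections, with a median of 1.40. For comparison, the median over all 15206 genes tested was 0.012. The share of all genes that were higher in both sections was not counted, so the counts of this paragraph are read beside that median only. Ube2c, an enzyme that marks mitotic proteins for destruction, was at 63.9 and 58.5 CPM in the proliferating spots of sections 1 and 2 against 8.21 and 9.54 in the remaining spots. Mcm6, a subunit of the helicase that opens DNA for copying, was at 47.3 and 57.6 CPM against 21.6 and 19.9. All 12 cell cycle transcription factors were higher in both sections, with a median of 0.72. Among them was Foxm1, the driver of G2 and M phase genes, at 9.38 and 11.5 CPM against 1.87 and 2.46. Of the chosen spots, 50.8% and 54.3% were also in the top 5% of their section by the G2 and M phase score, and 38.6% and 38.8% by the S phase score. Both phases were thus represented in the chosen spots.

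The remaining genes were tested. UMIs were summed per section over the chosen and over the remaining spots and compared with edgeR, with the section as a block and the 5 markers left out. Levels of single genes below are CPM of these sums, with totals scaled by edgeR's TMM factors, while marker levels and summed lists are CPM of the unscaled total, and ± after a log2 difference is the standard error of the fit (n = 2 sections). At an adjusted p of 0.05, 2086 of 15206 genes were higher in the proliferating spots (13.7%) and 2557 were lower (16.8%). The shape of the result was lower levels of mature proximal and thick limb transport genes and of mitochondrial fuel genes. Tubule injury, myeloid, matrix and chemokine genes were higher. The gene lists were chosen with earlier results of these data known, so their counts are read only against those shares. The counts depended on the setting: DESeq2 called 788 higher and 1296 lower, and sums of spots thinned to 5000 UMIs gave 745 and 1195.

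Injured tubule genes were higher in the proliferating spots. Of the 22 listed, 20 rose and 1 fell; the median log2 difference was 0.77 (0.70 and 0.74 in sections 1 and 2). Havcr1 (KIM-1), a receptor that injured proximal cells put on their surface to clear dead neighbours, was at 226 and 293 CPM in the proliferating spots of sections 1 and 2 against 89.6 and 101 in the remaining spots. The proliferating spots were high in both sections, and the difference was log2 1.44 ± 0.10, edgeR adjusted p = 4.43e-21. Cd44, a hyaluronan receptor of activated cells, was at 66.7 and 78.2 CPM against 30.4 and 23.1 (log2 1.46 ± 0.11, edgeR adjusted p = 1.31e-19). Anxa3, a membrane-binding annexin, was at 147 and 136 CPM against 67.8 and 63.1 (log2 1.11 ± 0.10, edgeR adjusted p = 4.43e-16), and Tmsb10, an actin-binding peptide, was at 1263 and 1227 CPM against 675 and 529 (log2 1.06 ± 0.11, edgeR adjusted p = 3.08e-13). These 4 genes had the smallest p of their list, so the gap between their sums is no separate support. The summed level of the whole list was 21070 and 20322 CPM against 11302 and 10257.

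Mature proximal tubule genes were lower. All 11 genes of the straight S3 segment fell, with a median of -1.27, and 8 of 13 genes of the S1 and S2 segments fell with none higher, with a median of -0.84. Slc7a13, an amino acid carrier of S3, was at 59.8 and 44.9 CPM against 278 and 196 (log2 -2.17 ± 0.11, edgeR adjusted p = 8.36e-28). Slc34a1, the main phosphate carrier of the early segments, was at 1563 and 1318 CPM against 3164 and 3702 (log2 -1.25 ± 0.12, edgeR adjusted p = 5.47e-15). Slc22a8 and Slc22a6 take organic anions such as drugs and urate from the blood. Slc22a8 was at 60.8 and 45.8 CPM against 156 and 196, a difference of log2 -1.72 ± 0.12, edgeR adjusted p = 3.41e-21, and Slc22a6 was at 321 and 309.5 CPM against 814 and 945, a difference of log2 -1.48 ± 0.11, edgeR adjusted p = 1.92e-19. Lrp2 (megalin), the receptor that recovers filtered protein, was at 269 and 249.5 CPM against 545 and 579 (log2 -1.12 ± 0.11, edgeR adjusted p = 2.16e-14). These 5 genes were picked by the smallest p of their lists, so the gap between their sums is no separate support.

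Fuel genes of the proximal tubule fell with them. Of 17 fatty acid oxidation genes 15 fell and none rose (median -1.15), and all 20 nuclear oxidative phosphorylation genes fell (median -0.75). Acadm, which starts the breakdown of medium-chain fatty acids, was at 180.0 and 164 CPM against 461 and 477 (log2 -1.45 ± 0.11, edgeR adjusted p = 2.36e-19). Ehhadh, a peroxisomal oxidation enzyme, was at 135 and 114 CPM against 381 and 373 (log2 -1.60 ± 0.11, edgeR adjusted p = 1.82e-21). Cyp4a14, a fatty acid omega-hydroxylase, was at 375 and 299 CPM against 1259.9 and 1251 (log2 -1.91 ± 0.11, edgeR adjusted p = 1.64e-24). Ndufs1, a subunit of respiratory complex I, was at 105 and 106 CPM against 182 and 212 (log2 -0.89 ± 0.10, edgeR adjusted p = 2.13e-11). These falls ran beside the lower mitochondrially encoded share of the chosen spots given above, whose part in the result was not tested. In spots, fewer cells of a type and less RNA per cell cannot be told apart.

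**Figure D2:**
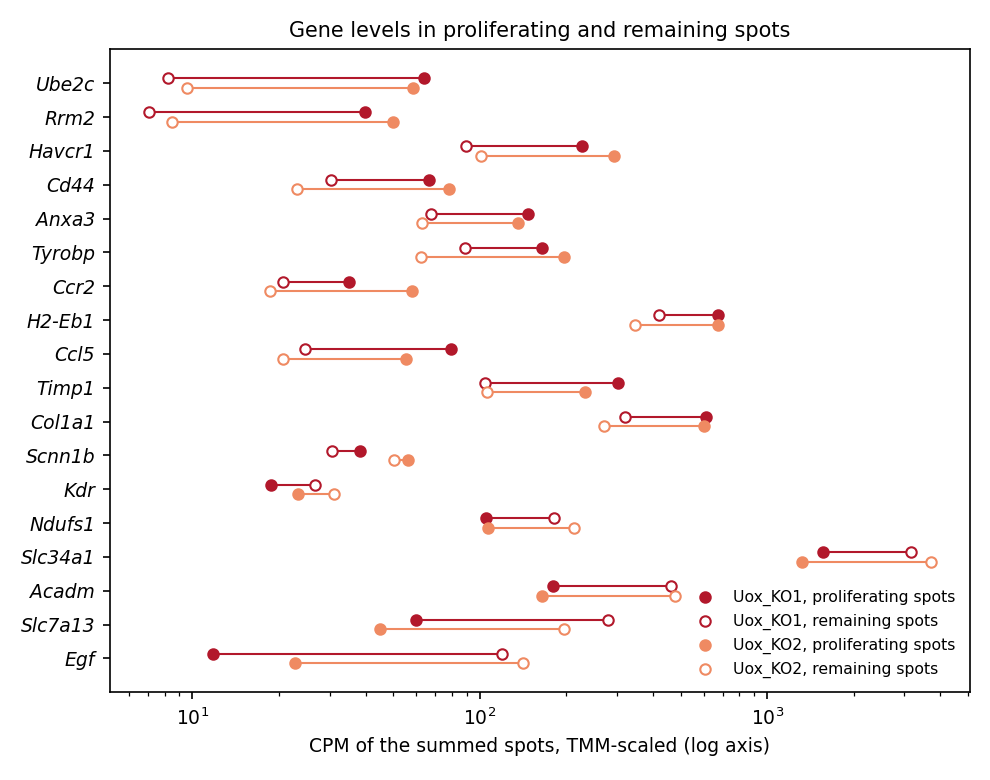
Levels of 18 genes (x axis, CPM of the summed spots, log axis) in proliferating spots (filled) and remaining spots (open) of each Uox_KO section, joined by a line. Cell cycle, injury, myeloid and matrix genes lie to the right in proliferating spots, Scnn1b, a sodium channel subunit of the collecting duct, and Kdr differ by less, and proximal, mitochondrial and thick limb genes lie to the left.

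Genes of the thick ascending limb were lower as well. Of 10 listed genes 8 fell and none rose, with a median of -0.80. Egf, a growth factor made by the thick limb and distal tubule, was at 11.8 and 22.7 CPM against 119 and 141, a difference of log2 -2.91 ± 0.14, edgeR adjusted p = 1.34e-30, one of the 10 largest falls. Umod (uromodulin), the main protein of normal urine, was at 513 and 626 CPM against 1380.3 and 1053 (log2 -1.09 ± 0.12, edgeR adjusted p = 1.07e-12). Slc12a1, the salt carrier blocked by loop diuretics, was at 53.5 and 87.9 CPM against 175 and 152 (log2 -1.21 ± 0.12, edgeR adjusted p = 3.66e-14). By DESeq2 Umod did not pass (adjusted p = 0.079). For Umod and Slc12a1 the gap was smaller in section 2 than in section 1.

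The distal nephron and collecting duct differed less. Of 11 distal convoluted and connecting tubule genes 5 fell and 1 rose (median -0.28), led by Slc12a3, the thiazide-sensitive carrier, at 126 and 125 CPM against 153 and 277 (log2 -0.72 ± 0.11, edgeR adjusted p = 2.31e-07). Slc12a3 did not pass by DESeq2 (adjusted p = 0.32) and turned to log2 0.043 with the thinned score. Of 10 principal cell genes 2 fell and none rose (median 0.13), and the section medians had opposite signs (-0.10 and 0.24). None of 10 intercalated cell genes passed the test in either direction by edgeR, with a median of 0.03, and 0 of the 10 had an unadjusted p under 0.05. Slc4a1, their basolateral anion exchanger, was at 1.04 and 10.6 CPM against 5.36 and 10.2, and the sections differed in sign. Of 9 thin limb genes 4 rose and 3 fell. Cldn4, a tight junction protein, was at 70.2 and 65.5 CPM against 36.7 and 44.5 (log2 0.74 ± 0.10, edgeR adjusted p = 7.85e-09). Cldn4 did not pass without injured-tubule-rich spots (log2 0.60, edgeR adjusted p = 0.059). Bst1 rose (log2 1.25), while Aqp1 (log2 -0.74) and Sptssb (log2 -3.82, one of the 10 largest falls described below) fell. Sptssb was at 0 CPM in both whole Control sections. Its fall did not pass without the fat and urothelium spots described below (log2 -1.21, edgeR adjusted p = 0.40). The fall of Sptssb is therefore not read as one of the thin limb. Thin limb, principal cell, intercalated cell, distal tubule, podocyte and vessel lists changed the sign of their median under some settings, so no direction is given for them.

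Vessel genes gave few calls. Of 12 endothelial genes 1 fell and none rose. That gene was Kdr, the main VEGF receptor, at 18.8 and 23.3 CPM against 26.7 and 31.2 (log2 -0.46 ± 0.14, edgeR adjusted p = 0.0066). Kdr did not pass by DESeq2 (adjusted p = 0.26) and turned to log2 0.21 without injured-tubule-rich spots.

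Myeloid genes shared spots with the cycling genes. Of 20 macrophage genes 19 rose and none fell, with a median of 0.96, and the median was 0.66 in section 1 and 1.21 in section 2. Tyrobp, an adaptor of myeloid receptors, was at 164 and 196 CPM against 89 and 62.3 (log2 1.28 ± 0.11, edgeR adjusted p = 6.93e-17). C1qc, a complement subunit made by resident macrophages, was at 255 and 274 CPM against 151 and 111 (log2 1.03 ± 0.10, edgeR adjusted p = 1.45e-13). Cd68, a lysosomal protein of macrophages, was at 29.9 and 55.8 CPM against 18.5 and 13.2 (log2 1.46 ± 0.15, edgeR adjusted p = 1.90e-13). By DESeq2 Cd68 did not pass (adjusted p = 0.16). In all 3 genes the gap was wider in section 2 than in section 1, a difference between sections that was not tested. The summed list was at 7065 and 7714 CPM against 4630 and 3708.

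Monocyte and dendritic cell genes were higher as well. Of 10 monocyte genes 8 rose and none fell (median 1.19). Ccr2, the receptor that draws monocytes into tissue, was at 35.1 and 58.2 CPM against 20.6 and 18.6 (log2 1.26 ± 0.13, edgeR adjusted p = 1.77e-13), and Ms4a4c, a gene of monocytes, was at 10.1 and 25.2 CPM against 5.13 and 5.79 (log2 1.67 ± 0.22, edgeR adjusted p = 9.88e-10). Of 13 dendritic cell genes 8 rose and none fell (median 0.79). H2-Eb1, a class II antigen-presenting chain, was at 675 and 675 CPM against 421 and 347 (log2 0.82 ± 0.11, edgeR adjusted p = 9.54e-10).

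Lymphocyte RNA was low throughout. Of 19 T and NK cell genes 9 rose and none fell (median 0.76), and the whole list summed to 113 and 131 CPM in the proliferating spots against 55.9 and 48.0 in the others. Trbc2, a constant part of the T cell receptor, was at 14.6 and 15.2 CPM against 8.23 and 7.42 (log2 0.93 ± 0.20, edgeR adjusted p = 1.41e-04). Trbc2 did not pass with sums of thinned spots (log2 0.60, edgeR adjusted p = 0.28) or without macrophage-rich spots (log2 0.71, edgeR adjusted p = 0.14). Of 5 B cell genes tested 1 rose, Cd79b of the B cell receptor, and of 4 neutrophil genes 1 rose, Mmp9, a matrix-cutting enzyme. Neither call held by DESeq2 (adjusted p = 0.18 for Cd79b and 0.06 for Mmp9), and Mmp9 turned to log2 -0.38 without macrophage-rich spots.

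Matrix genes rose in the same spots. Of 16 fibroblast and matrix genes 10 rose and none fell (median 0.74, with 0.50 and 0.84 by section). Timp1, an inhibitor of matrix-cutting enzymes, was at 303 and 232 CPM against 104 and 106 (log2 1.34 ± 0.10, edgeR adjusted p = 3.90e-19). Col1a1, the chain of the main scar collagen, was at 609.9 and 603 CPM against 320.1 and 270.0 (log2 1.04 ± 0.11, edgeR adjusted p = 1.59e-13), and Fn1 (fibronectin), which also stands in the monocyte list, was at 357 and 362 CPM against 189 and 129 (log2 1.20 ± 0.11, edgeR adjusted p = 6.51e-16). These genes, too, were picked by the smallest p of their list, so the gap between their sums is no separate support.

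Signals that recruit leukocytes were raised. Of 18 chemokine genes 13 rose and 1 fell (median 1.06). Ccl5, which draws T cells, was at 79.2 and 55.5 CPM against 24.7 and 20.7 (log2 1.56 ± 0.11, edgeR adjusted p = 2.42e-21). Ccl2, the ligand of Ccr2, was at 100.1 and 127 CPM against 46.9 and 41.6 (log2 1.36 ± 0.10, edgeR adjusted p = 1.93e-19). Ccl9, a chemokine of macrophages, was at 53.9 and 109.7 CPM against 31.6 and 23.4 (log2 1.58 ± 0.13, edgeR adjusted p = 3.71e-17). Ccl9 did not pass by DESeq2 (adjusted p = 0.14). Of 19 interferon response genes 13 rose and none fell (median 0.63), with Irf7, a regulator of type I interferon, at 69.2 and 69.1 CPM against 36.2 and 36.7 (log2 0.92 ± 0.10, edgeR adjusted p = 2.74e-12). Irf7 did not pass with sums of thinned spots (log2 0.43, edgeR adjusted p = 0.089).

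Growth signals gave a mixed picture. Of 31 tested ligands and receptors 12 rose and 4 fell, Egf among the latter. Csf1r, the receptor through which macrophages receive survival signals, was at 108 and 126 CPM against 68.8 and 54.5 (log2 0.93 ± 0.10, edgeR adjusted p = 3.87e-12). Ccn1 and Ankrd1 are targets of the YAP pathway, which senses tension and cell crowding. Ccn1 was at 214 and 170.1 CPM against 101 and 103 (log2 0.90 ± 0.10, edgeR adjusted p = 5.29e-12), and Ankrd1 was at 33.7 and 33.7 CPM against 16.5 and 12.1 (log2 1.25 ± 0.14, edgeR adjusted p = 5.84e-12). Ankrd1 did not pass without injured-tubule-rich spots (log2 0.72, edgeR adjusted p = 0.24). Genes of cell cycle entry and arrest are described without a test, like the other cell cycle lists. Of 24 such genes 16 were higher and 6 lower in both sections, with a median log2 difference of 0.39 beside 0.012 over all genes tested. The shares of all genes higher or lower in both sections were not counted, so the counts are a description only. Ccnd1, the cyclin that answers to growth factors, was at 215 and 206 CPM against 147 and 154 (log2 0.48 ± 0.10). Cdk4, its kinase partner, was at 92.1 and 94.6 CPM against 66.5 and 61.9 (log2 0.54 ± 0.10).

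The largest rises outside the cell cycle lists were mostly further genes of dividing cells. By the rule on size these were Ncaph, Mxd3, Kifc1, Pclaf, Shcbp1, Knstrn, Cdkn3, Lockd, Cenpm and AA467197, with log2 differences of 2.26 to 2.64. Genes of dividing cells are switched on together with the markers, so no p-value is given for Ncaph and Pclaf. Ncaph, a condensin subunit that compacts chromosomes, was at 11.5 and 14.6 CPM against 2.63 and 1.63 (log2 2.64 ± 0.28). Pclaf, which binds the DNA clamp PCNA, was at 25 and 26.7 CPM against 4.14 and 4.7 (log2 2.55 ± 0.19). Among the next rises, picked after their values were seen, were 2 genes of inflammation, Cxcl5 and Il1rn. Cxcl5, a neutrophil chemokine, was at 13.9 and 7.58 CPM against 2.69 and 2.48 (log2 2.02 ± 0.28, edgeR adjusted p = 7.69e-09). Il1rn, the antagonist of interleukin 1, was at 6.26 and 14.6 CPM against 2.95 and 2.37 (log2 1.98 ± 0.29, edgeR adjusted p = 3.48e-08). Without injured-tubule-rich spots neither Cxcl5 (log2 0.33, edgeR adjusted p = 0.86) nor Il1rn (log2 1.10, edgeR adjusted p = 0.35) passed. Cxcl5 also did not pass with sums of thinned spots (log2 1.38, edgeR adjusted p = 0.18).

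The largest falls included genes of fat (Cidea, Ucp1, Adig, Thrsp) and urothelium (Upk1a). By the rule on size they were Cidea, Ucp1, Cox8b, Sptssb, Clstn3, Thrsp, Nat8l, Egf, Adig and Upk1a, with log2 differences of -4.45 to -2.79. Ucp1, the heat-making protein of brown fat, was at 10.4 and 13.6 CPM against 219.8 and 301 (log2 -4.44 ± 0.14, edgeR adjusted p = 3.91e-41). Of 10 adipocyte genes 9 fell (median -2.27), of 10 urothelium genes 8 fell and 1 rose, and of 6 red blood cell genes 5 fell. The red blood cell median of -1.78 turned to 0.30 with the score on spots thinned to 5000 UMIs, so no direction is given for that list. Fat and urothelium spots, the top 10% of spots by either list, made up 9.85% and 13.2% of the chosen spots and 16.1% and 18.2% of the remaining ones. With these spots left out, the log2 difference of Ucp1 was -0.41, adjusted p = 0.17, that of Upk1a, a plaque protein of urothelium, was -0.85, adjusted p = 0.24, and that of Clstn3 turned to 0.23, adjusted p = 0.83, none past the threshold. Of the 10 largest falls 8 no longer passed, and the calls dropped to 3 of 9 adipocyte genes and 0 of 10 urothelium genes. Without those spots 1791 genes were higher and 2294 lower, 19 of 22 injured tubule and 18 of 20 macrophage genes still rose, and Slc7a13 (-2.30, adjusted p = 3.30e-15) and Egf (-3.15, adjusted p = 7.15e-16) still fell.

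**Figure D3:**
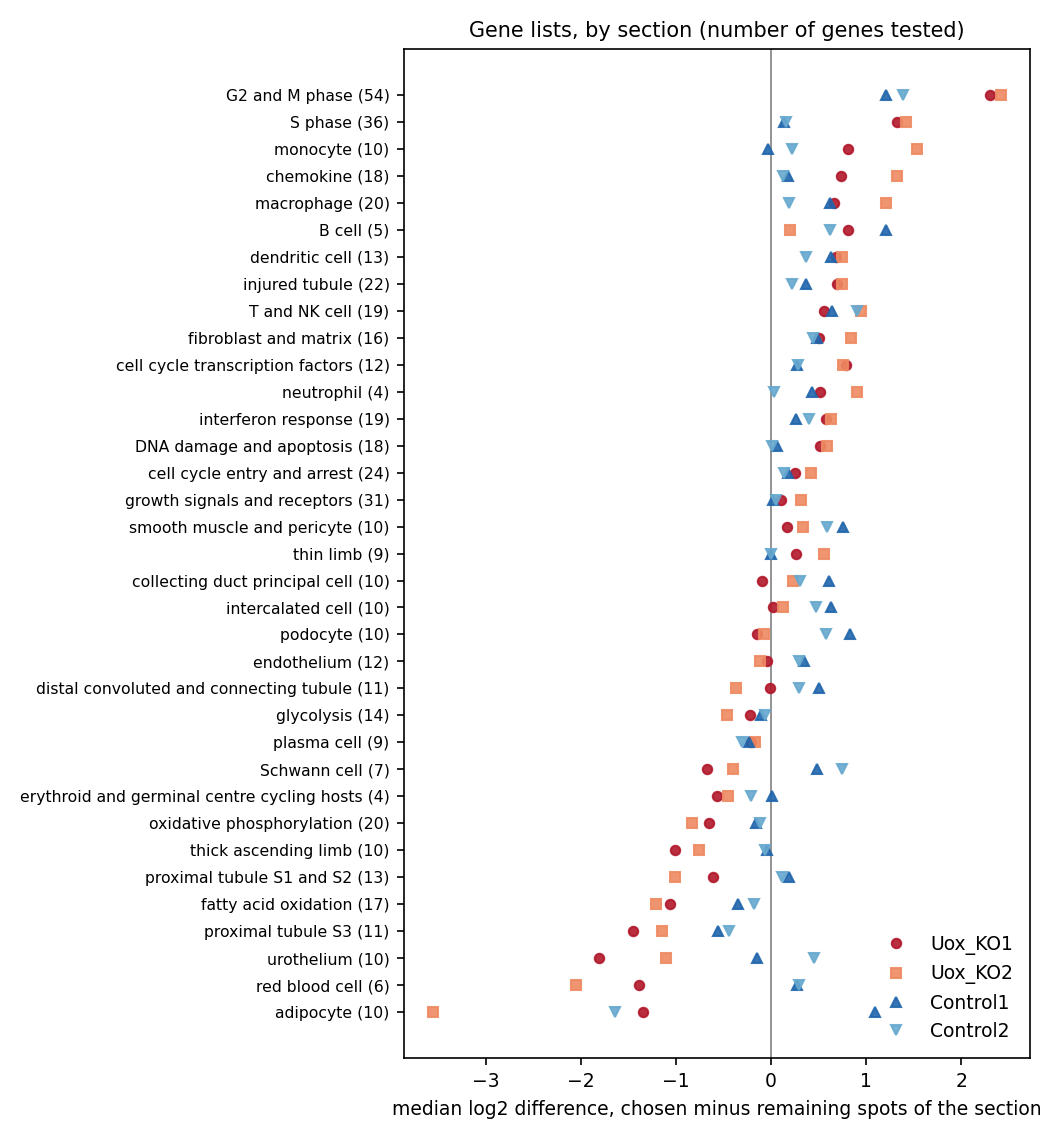
Median log2 difference of each gene list between chosen and remaining spots (x axis) in each section, with the number of genes tested after the name of the list. In both Uox_KO sections cell cycle, macrophage, monocyte, dendritic, T and NK, matrix and injury lists lie to the right of 0. Plasma cell, proximal, fuel, red cell, urothelium and fat lists lie to the left. The red cell sign turned with the thinned score, and the plasma cell sign turned with 5 other cell cycle genes as score. In Control most lists, G2 and M phase included, lie nearer to 0. Podocyte, principal cell, intercalated cell, endothelium and smooth muscle lists lie further to the right in both Control sections than in both Uox_KO sections.

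Injured tubule and macrophage scores were then set against each other, spot by spot. Each section was split into quartiles by the summed score of the injured tubule list and, separately, of the macrophage list, scored like the markers. In the highest injury quartile between 10.9% and 17.6% of the spots of section 1 and between 7.41% and 14.1% of those of section 2 were proliferating, at every macrophage quartile. In the lowest injury quartile the shares were 0% to 1.56% and 0% to 0.262%. In that quartile few spots were rich in macrophage genes (11 and 6), and none of them was proliferating, which allows a share of up to 28.5% and 45.9% (exact 95% limit). Within the highest injury quartile the share in the highest macrophage quartile was 12.4% (47 of 378) in section 1 and 14.1% (54 of 383) in section 2. Its lowest macrophage quartile held 17 and 16 spots, of which 3 and 2 were proliferating, and its intervals were wide.

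**Figure D4:**
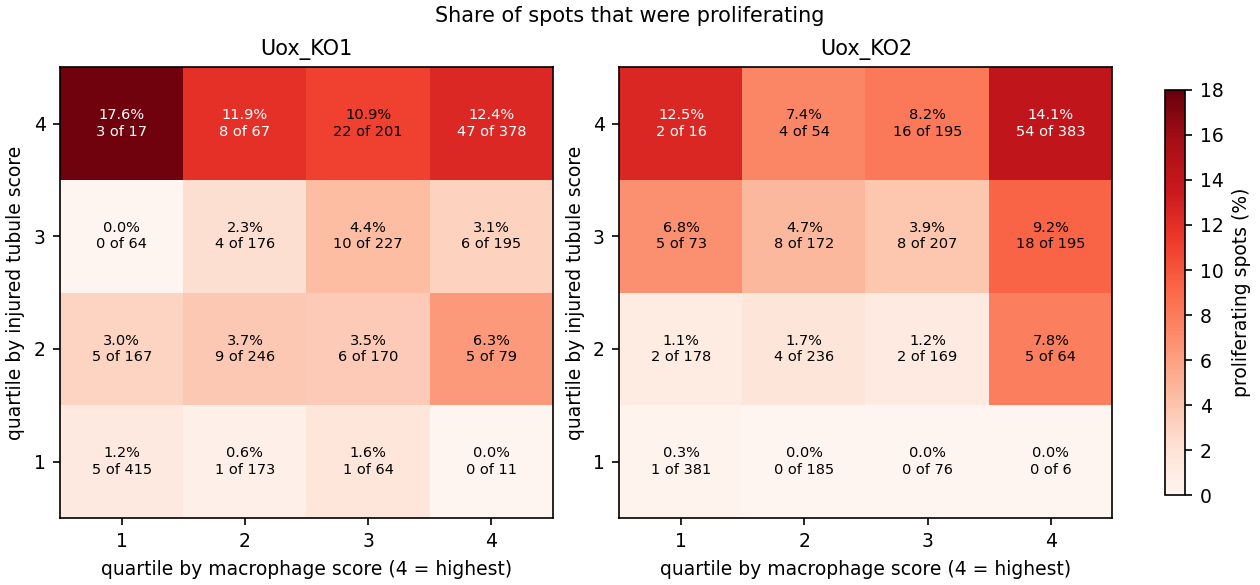
Share of spots that were proliferating in each combination of quartiles by macrophage score (x axis) and injured tubule score (y axis), for Uox_KO sections 1 and 2, with the counts of spots. The row of the highest injury quartile is darkest in section 1 across all macrophage quartiles, and in section 2 the highest macrophage column is dark from the second injury quartile upward.

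Proliferating spots were more often rich in both groups than the remaining spots were. Spots in the top 25% by the injured tubule list and by at least 1 of the macrophage, monocyte, dendritic or T and NK cell lists made up 50% of the proliferating spots of section 1 (66 of 132) and 52.7% of section 2 (68 of 129), against 17.7% and 18.2% of the remaining spots. Injured tubule without immune accounted for 10.6% and 6.20%, against 5.48% and 5.08% of the remaining spots. Immune without injured tubule accounted for 24.2% and 23.3%, close to the 25.4% and 23.5% of the remaining spots. Neither held for 15.2% (20 spots) and 17.8% (23 spots), against 51.4% and 53.3% of the remaining spots. Spots of 1 section are not replicates, so these shares carry no test. The 27 and 34 spots with at least 10 marker UMIs were in the injured tubule top 25% in 85.2% and 79.4% of cases, with median depths of 33851 and 36336 UMIs, well above the 16481.5 and 19205 of all chosen spots.

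Each list was also taken alone. Of the proliferating spots 60.6% and 58.9% were in the top 25% of their section by the injured tubule list, where 25% of all spots lie. The share was 50% and 58.9% for fibroblast and matrix, 53.0% and 55.8% for monocytes and 43.9% and 59.7% for macrophages. It was 6.06% and 3.88% for S3, 15.9% and 3.88% for S1 and S2 and 15.2% and 17.1% for the thick limb. Principal cells (20.5% and 27.1%), intercalated cells (21.2% and 27.1%) and distal tubule (23.5% and 24.0%) had intervals that held 25%. The spots that the rule chose in Control had shares of 46.8% and 42.3% for injured tubule, 48.4% and 39.3% for fibroblast and matrix, 46.8% and 35.7% for macrophages and 28.6% and 30.4% for monocytes, most of them on 1 marker UMI. In the stricter top 5% of the Uox_KO sections, 18.2% and 16.3% of the proliferating spots were injured-tubule rich, 12.1% and 17.8% macrophage rich and 14.4% and 23.3% monocyte rich.

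**Figure D5:**
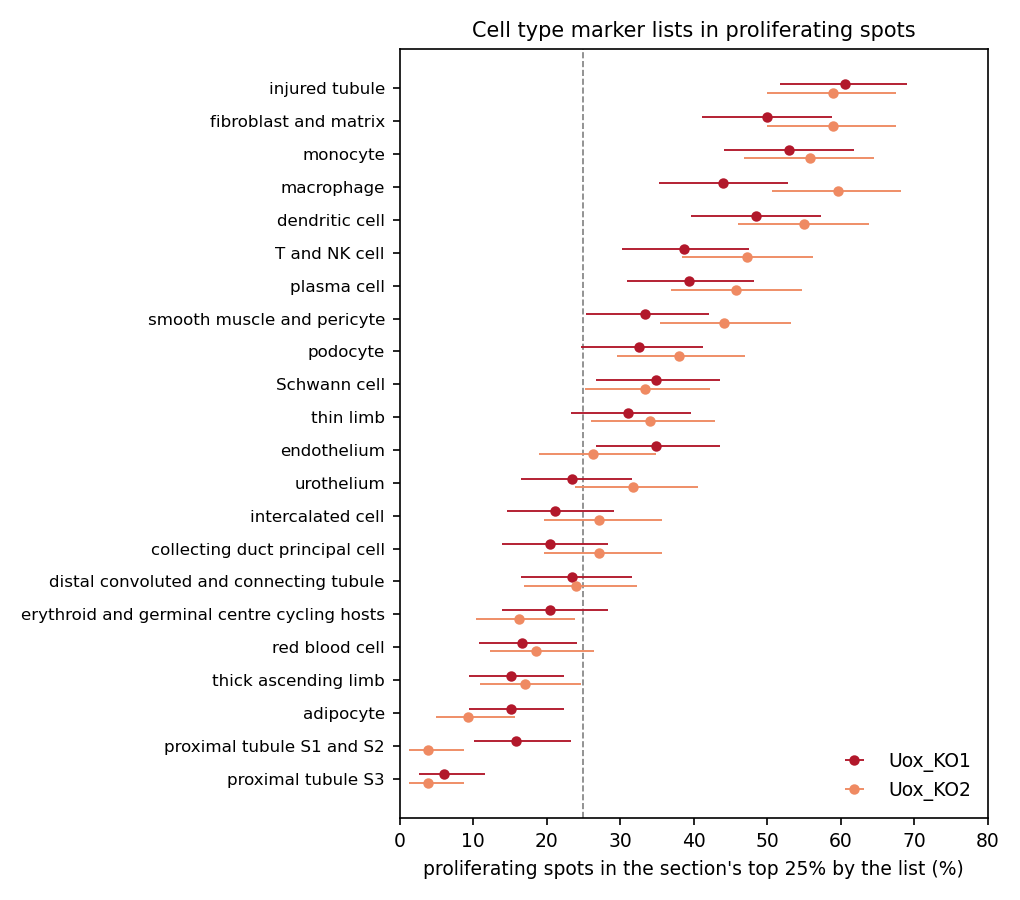
Share of proliferating spots (x axis, percent with exact 95% interval) that lie in the top 25% of their section by each cell type marker list, for both Uox_KO sections. The dashed line marks the 25% that lie there among all spots; injured tubule, matrix and myeloid lists lie to its right in both sections and proximal tubule lists to its left. Neutrophil and B cell lists, with UMIs in under 25% of spots, are not drawn.

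The most marked single spots were of several kinds. The highest marker count was a spot of section 2 with 58 marker UMIs among 69367, which stood at the 99.8th percentile of its section by the injured tubule score. In section 1 the spot with the highest score had 17 marker UMIs among 16323 and stood at the 98.3rd percentile by principal cell genes and the 97.6th by intercalated cell genes. The ninth spot of section 2 had 6 marker UMIs among 10732 and stood at the 99.9th percentile by dendritic cell genes. The second spot of section 1, with 6 marker UMIs among 5753, stood at the 98.3rd percentile by fibroblast and matrix genes. Spots rich in collecting duct genes were thus among the most marked, while no principal or intercalated cell gene rose over all proliferating spots. Without macrophage-rich spots 6 of 10 principal and 4 of 10 intercalated cell genes rose, and with spots chosen within quartiles of depth 4 and 1 did. Over all genes these settings called 1464 and 2002 higher.

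The injury and myeloid groups were also examined with the other taken out, a check added after the data were seen. Without the 25% of spots highest in macrophage genes, 19 of 22 injured tubule genes and 11 of 20 macrophage genes rose in the spots then chosen. Over all genes, 1464 were higher and 2066 lower in that setting. Without the 25% highest in injured tubule genes, 4 of 22 injured tubule and 16 of 20 macrophage genes rose. That setting lowered the counts over all genes further, to 781 higher and 1027 lower. As fewer genes passed there, list counts of these settings are not compared with each other. Havcr1 then differed by log2 0.43 (edgeR adjusted p = 0.073) and no longer passed, and Tyrobp differed by log2 1.08 (edgeR adjusted p = 0.0011). Monocyte calls were 3 of 10 without macrophage-rich spots and 5 of 10 without injured-tubule-rich spots. T and NK cell calls were 0 of 16 and 8 of 17, and interferon response calls 3 of 19 and 12 of 19. Ms4a4c no longer passed without macrophage-rich spots (log2 0.68, edgeR adjusted p = 0.23). All 11 S3 genes still fell in both settings, whereas S1 and S2 calls were 8 and 5 of 13, with a median of -0.24 without injured-tubule-rich spots. Leaving out a list's own richest spots narrows the range of that list by construction.

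Genes whose level followed the score over single spots were sought among 10336 genes found in at least 10% of spots of each section. Outside the cell cycle lists the closest were Tmsb10 (Pearson r 0.28 and 0.35 in sections 1 and 2), Actg1, Tmsb4x, Ptma, Jpt1, Col3a1, Actb, Timp1, Cd74 and Ly6e, with mean r of 0.25 to 0.31. The points are spots of 1 section that share a library and differ in depth, and the values are given as a description. All 10 were higher in the proliferating sums. The same score ranked these genes and chose the spots, so this is no separate support and no p-value is given. Actb, the cytoskeletal actin, was at 4075 and 4323 CPM against 2936 and 2762 (log2 0.56 ± 0.11).

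The same rule was applied to each Control section to ask whether the differences were particular to Uox_KO. It chose 126 and 168 spots, but 81 and 115 of these held a single marker UMI. They were also shallower than the rest, with medians of 29020 against 37844 and 26738.5 against 32433 UMIs. In 1 edgeR fit over all 4 sections the spot difference was higher in Uox_KO than in Control for 482 of 15691 genes (3.07%) and lower for 1319 (8.41%). Injured tubule genes were higher in 7 of 22 cases and macrophage genes in 6 of 20, none lower, while all 20 oxidative phosphorylation, 15 of 17 fatty acid oxidation and 10 of 13 S1 and S2 genes were lower. No T and NK, dendritic or interferon gene passed either way. Slc34a1 was at 5864 and 5842 CPM in the chosen Control spots against 6781 and 6625 in the others, a difference between genotypes of log2 -1.06 ± 0.11, edgeR adjusted p = 1.26e-06. Csf1r was at 14.7 and 13.4 CPM in the chosen Control spots against 16 and 14.9 in the others, a difference of log2 1.07 ± 0.19, edgeR adjusted p = 3.87e-04. Havcr1 had 0 UMIs in the chosen spots of both Control sections, so no fold of the interaction is given. The number of genes fell from 1801 to 958 without Control section 1 and to 846 without Control section 2. The difference in how many dividing cells the rule caught in either genotype and the genotype itself cannot be told apart here.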

How the data were processed

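The measurement was Visium spatial RNA sequencing of 1 kidney section from each of 4 mice (2 Uox_KO, 2 Control). The deposited values were raw UMI counts for 32285 gene identifiers per spot, made with Space Ranger 1.3.1 on mm10 per the submitters' processing notes. All spots in the files were used, and how they had been limited to tissue is not given in the sources used here. No spot positions were used here, so neighbourhoods were not analysed. Counts were kept as deposited, no doublet caller was run and no spot was removed. In the test, UMIs of the chosen and of the remaining spots were summed per section and compared with edgeR 4.0.16 (R 4.3.3; filterByExpr, TMM, glmQLFit, glmQLFTest, section as block, Benjamini-Hochberg threshold 0.05), with the 5 markers removed. Other fits covered all 4 sections with the interaction of spot group and genotype, and whole sections between genotypes. Symbols shared by several identifiers were left out of the lists (3 genes), and 2 listed genes were not found. Spots were thinned with a fixed seed for shares, and intervals are exact binomial at 95%. DESeq2 1.42.0 was an alternative, and the edgeR script was tested on simulated data. Named genes were the markers, the 10 largest rises and falls with at least 10 CPM that passed, moved alike in both sections and were outside the cell cycle lists (predicted, mitochondrial and ribosomal protein genes left out), up to 4 of each list by smallest p, up to 4 for the interaction and the 10 most like the score. The members and lists were chosen with earlier results of these data known. Levels shown for other genes are named in the text as chosen after their values were seen. Single genes of the podocyte list are not reported here.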

Additional observations from a re-analysis of the deposited data

Results flagged for a closer look

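For 7 of the named genes the difference between chosen and remaining spots was not the same in the genotypes, by the edgeR interaction test over 4 sections. The values are the log2 difference in Uox_KO minus that in Control, and the chosen Control spots mostly held 1 marker UMI. Levels are CPM scaled by TMM over the 2 Uox_KO sections for Uox_KO and over all 4 sections for Control. Hba-a1, a red blood cell globin, was at 17.7 and 43.7 CPM against 65.3 and 199 in Uox_KO and at 1818 and 1752 CPM in the chosen Control spots against 1502 and 1407 in the others, a difference of -2.38 (adjusted p = 5.93e-11). Hbb-bs, the matching beta globin, was at 46.9 and 83.1 CPM against 124 and 386 in Uox_KO and at 3532 and 3238 CPM in the chosen Control spots against 2964 and 2791 in the others, a difference of -2.12 (adjusted p = 1.12e-08). Egf, the growth factor of the thick limb and distal tubule, was at 11.8 and 22.7 CPM against 119 and 141 in Uox_KO and at 806 and 839 CPM in the chosen Control spots against 800.5 and 861 in the others, a difference of -2.90 (adjusted p = 5.93e-11). Pygl, the liver form of glycogen phosphorylase, was at 9.04 and 13.6 CPM against 40.6 and 68.2 in Uox_KO and at 16.7 and 22.1 CPM in the chosen Control spots against 13 and 16.4 in the others, a difference of -2.67 (adjusted p = 7.57e-09). Upk1a, a urothelial plaque protein, was at 5.56 and 1.52 CPM against 32.1 and 15.9 in Uox_KO and at 1.15 and 1.44 CPM in the chosen Control spots against 0.532 and 0.642 in the others, a difference of -3.94 (adjusted p = 2.20e-04). Thrsp, a regulator of fat synthesis, was at 50.4 and 24.3 CPM against 253 and 422 in Uox_KO and at 5.48 and 6.96 CPM in the chosen Control spots against 4.17 and 9.27 in the others, a difference of -3.05 (adjusted p = 4.38e-04). Cox8b, a respiratory chain subunit of muscle and brown fat, was at 11.8 and 16.4 CPM against 192 and 372 in Uox_KO and at 0.577 and 1.92 CPM in the chosen Control spots against 0.133 and 7.97 in the others, a difference of -2.59 (adjusted p = 0.0083). Without fat and urothelium spots the spot difference in Uox_KO no longer passed for Pygl (log2 -0.30, adjusted p = 0.36), Thrsp (-0.14, adjusted p = 0.60) and Upk1a (-0.85, adjusted p = 0.24). With the score on thinned spots the Uox_KO difference turned to log2 0.28 for Hba-a1 and 0.32 for Hbb-bs. By DESeq2 the interaction of Cox8b did not pass (adjusted p = 0.14). What lay behind these differences was not tested.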

How the results depend on the processing

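Against 2086 higher and 2557 lower genes, DESeq2 called 788 and 1296, sums of spots thinned to 5000 UMIs 745 and 1195, and leaving out injured-tubule-rich spots 781 and 1027. The top 2.5% of spots gave 1234 higher genes and the score on thinned spots 1299. For the 1801 genes that differed between genotypes, DESeq2 called 940, and leaving out a section gave 846 to 2428. The share of chosen spots in the top 5% by the injured tubule score was 17.2%, and 23.8% when the top 2.5% of spots were chosen. For the 78 named genes with a spot test, 1187 of 1248 values kept direction and side of the threshold, 54 no longer passed and 7 reversed, over 33 genes. The settings with most such changes left out injured-tubule-rich spots (14) or fat and urothelium spots (11). The reversed values were Clstn3 without fat and urothelium spots (log2 0.23), Kdr without injured-tubule-rich spots (0.21), Mmp9 without macrophage-rich spots (-0.38), Igha with the other 5 genes as score (1.43, edgeR adjusted p = 8.89e-09) and, with the thinned score, Hba-a1 (0.28), Hbb-bs (0.32) and Slc12a3 (0.043). Of 35 lists, 25 kept the sign of their median under every alternative run. Without the replicate block the spot fit called 1648 higher and 2099 lower genes. With a replicate block the whole-section fit called 85 cell cycle genes, as without it. Same-numbered sections of the genotypes correlated at 0.0899 in their deviations from the group means. With 2 sections per group this cannot show whether they shared a slide, run or litter. Leaving out 1 Uox_KO section leaves no residual degrees of freedom in the spot fit, so no count was made. The cause of these changes was not tested.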

Other observations

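Further lists gave mixed calls in the proliferating spots. Of 18 DNA damage and apoptosis genes 9 rose and 1 fell. Genes of dividing cells are switched on together with the markers, and this list was not cleared of them. Its count is therefore not read as a sign of DNA damage, and no p-value is given for H2afx. H2afx, the histone that marks DNA breaks, was at 32.7 and 28.5 CPM against 12.1 and 12.6 (log2 1.31 ± 0.15). Gdf15, a stress hormone, was at 99.7 and 68.8 CPM against 51.8 and 51.5 (log2 0.69 ± 0.10, edgeR adjusted p = 5.63e-08). Gdf15 did not pass without injured-tubule-rich spots (log2 0.30, edgeR adjusted p = 0.20). Of 14 glycolysis genes 8 fell and 1 rose, with Pfkl, the liver form of phosphofructokinase, at 63.6 and 44 CPM against 80.8 and 91.3 (log2 -0.69 ± 0.11, edgeR adjusted p = 6.04e-07), a call lost without fat and urothelium spots (adjusted p = 0.14). Levels are TMM-scaled CPM in sections 1 and 2, chosen against remaining spots.

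Antibody genes went both ways. Of 9 plasma cell genes 2 rose and 4 fell. With 5 other cell cycle genes as score 5 of 9 rose and none fell, and the median turned from -0.35 to 0.54. No direction is therefore given for the plasma cell list. Igha, the heavy chain of IgA, was at 9.73 and 3.33 CPM against 26.8 and 16 (log2 -1.74 ± 0.21, edgeR adjusted p = 5.77e-11), and Ighm, the heavy chain of IgM, was at 22.6 and 27 CPM against 16.8 and 11.9 (log2 0.82 ± 0.16, edgeR adjusted p = 1.47e-05). Igha turned to log2 1.43 (edgeR adjusted p = 8.89e-09) when 5 other cell cycle genes made the score, so no direction is given for it. Ighm did not pass with sums of thinned spots (log2 0.42, edgeR adjusted p = 0.37). Nor did Ighm pass without macrophage-rich spots (log2 0.44, edgeR adjusted p = 0.21). Of 10 smooth muscle and pericyte genes 3 rose and 2 fell, and of 7 Schwann cell genes 1 rose and 1 fell. Erythroid and germinal centre cells divide elsewhere in the body, and 4 of their 8 listed genes could be tested. Tfrc (log2 -0.90) and Bcl6 (log2 -0.48) fell, while Klf1 and Epor did not pass (edgeR adjusted p = 0.32 and 0.82). These calls are not read as a result about those cells.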
